A study of Homo sapiens with 6 samples.

Results

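The HOX genes are the 21 genes of the HOXA, HOXB, HOXC and HOXD clusters that these arrays read with at least 1 probe set naming a single gene symbol, out of 15277 genes read in that way. For each gene the probe set of highest mean over all 6 arrays was taken, from 33 HOX probe sets in all. RefSeq lists 39 human HOX genes, so coverage was uneven. All 10 of the HOXB cluster on chromosome 17 were read, with 6 of 9 of the HOXC cluster on chromosome 12, 4 of 9 of the HOXD cluster on chromosome 2 and 1 of 11 of the HOXA cluster on chromosome 7, which was HOXA2. The remaining 18 HOX genes were not analysed here.

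HFL-1 is an established human fetal lung fibroblast line, grown here in F-12K medium with fetal bovine serum. Total RNA was read on 6 Affymetrix PrimeView arrays, 3 labelled as HYAL1 overexpression and 3 labelled as the control vector CON335. HYAL1 is a lysosomal hyaluronidase and was carried by a lentiviral vector, and both groups were infected with lentivirus in the presence of polybrene. The titles call the replicates biological without saying how they were made, so the p-values measure only the spread between these samples, which may be technical. In bulk RNA of this kind, fewer cells of a type and less RNA per cell cannot be told apart.

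HOX genes encode homeodomain transcription factors that give cells their position along the body axis. Within a cluster the genes lie in order, and those at the 3′ end, with low paralog numbers, are as a rule active further forward in the embryo than those at the 5′ end. Fibroblasts keep a positional HOX pattern in culture, and in mouse the lung mesenchyme is known for expressing 3′ and middle genes of the HOXA and HOXB clusters. Polycomb proteins keep HOX genes silent, Trithorax proteins keep them active, retinoic acid induces the 3′ genes first, and TALE proteins (PBX, MEIS and relatives) bind DNA together with HOX proteins.

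The labels and HYAL1 itself did not match. HYAL1 averaged 4.77 ± 0.0818 on the log2 scale in HYAL1-labelled arrays and 7.48 ± 0.0188 in control-labelled arrays (SD, n = 3 each), a difference of -2.71 with no overlap (limma adjusted p = 7.78e-07). In the HYAL1-labelled arrays HYAL1 lay below the background median (6.78 to 6.90), so its level there is not well determined and neither is the exact size of the difference. An exact two-sided permutation test gave p = 0.10, the smallest that 3 arrays against 3 allow. The study's own supplementary list of changed genes heads the arrays the opposite way. Every direction below therefore belongs to the arrays labelled HYAL1 or control, and under the headings of that list each one would be reversed.

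The upstream windows of 2 HOX genes below their background level are shown because each holds a PBX-HOX motif, the joint binding sequence of the 2 protein families. HOXB1 lies next to the part of the HOXB cluster above the background median. Its mouse promoter is known for PBX-HOX sites through which the gene sustains itself in the hindbrain. HOXA2, the only HOXA gene read, is known for setting hindbrain and branchial arch identity. Both windows are the 250 bases before the annotated start in RefSeq on GRCh38.p14, written 5′ to 3′ on the gene's minus strand, at chr17:48531012-48531261 for HOXB1 and chr7:27102684-27102933 for HOXA2. Capitals mark the PBX-HOX motif TGATNNAT on either strand and the MEIS motif TGACAG.
HOXB1: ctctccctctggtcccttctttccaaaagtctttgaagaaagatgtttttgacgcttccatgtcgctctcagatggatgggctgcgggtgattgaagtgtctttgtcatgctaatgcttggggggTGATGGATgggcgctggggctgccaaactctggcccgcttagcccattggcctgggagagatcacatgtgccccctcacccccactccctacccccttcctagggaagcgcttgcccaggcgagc
HOXA2: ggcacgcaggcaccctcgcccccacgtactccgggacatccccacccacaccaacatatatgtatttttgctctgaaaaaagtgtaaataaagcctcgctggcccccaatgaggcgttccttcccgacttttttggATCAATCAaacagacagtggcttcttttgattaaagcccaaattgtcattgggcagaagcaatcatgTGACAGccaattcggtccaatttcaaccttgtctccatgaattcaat

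In HOXB1 the PBX-HOX match began 125 bases before the start. In HOXA2 it began 114 bases before the start, with a MEIS match 47 bases before it. Over 35114 RefSeq promoter windows of the same length, 6.47% held TGATNNAT and 13% held TGACAG on either strand. Of the 21 HOX genes, 7 had a window in the table used here, forming 6 distinct windows since HOXC4 and HOXC5 share 1, and the other 4 windows held neither motif. The other 14 genes (HOXB2 to HOXB9, HOXB13, HOXC6, HOXC9, HOXC11, HOXC13 and HOXD9) were not in the table. A match describes the letters only.

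Among the 21 HOX genes read, those above the background median on all 6 arrays formed a run of neighbouring HOXB genes. With 1 of 11 HOXA genes read, the HOXA part of the pattern is not known from these values. HOXB2, HOXB3, HOXB4, HOXB5, HOXB6 and HOXB7 lay above the background median on all 6 arrays, and they follow each other without a gap along the cluster. The background median is that of 9 probe sets that match no human transcript, grouped by their number of G and C bases (17 to 25 of the probe's 25), and it ran from 6.78 to 6.90 in HYAL1-labelled arrays and from 6.69 to 6.89 in control-labelled arrays. Hence 6 of 21 HOX genes (28.6%) passed this level, against 8489 of 15277 genes (55.6%). HOXB1 at one end of the run and HOXB8, HOXB9 and HOXB13 at the other were below it on every array.

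**Figure D1:**
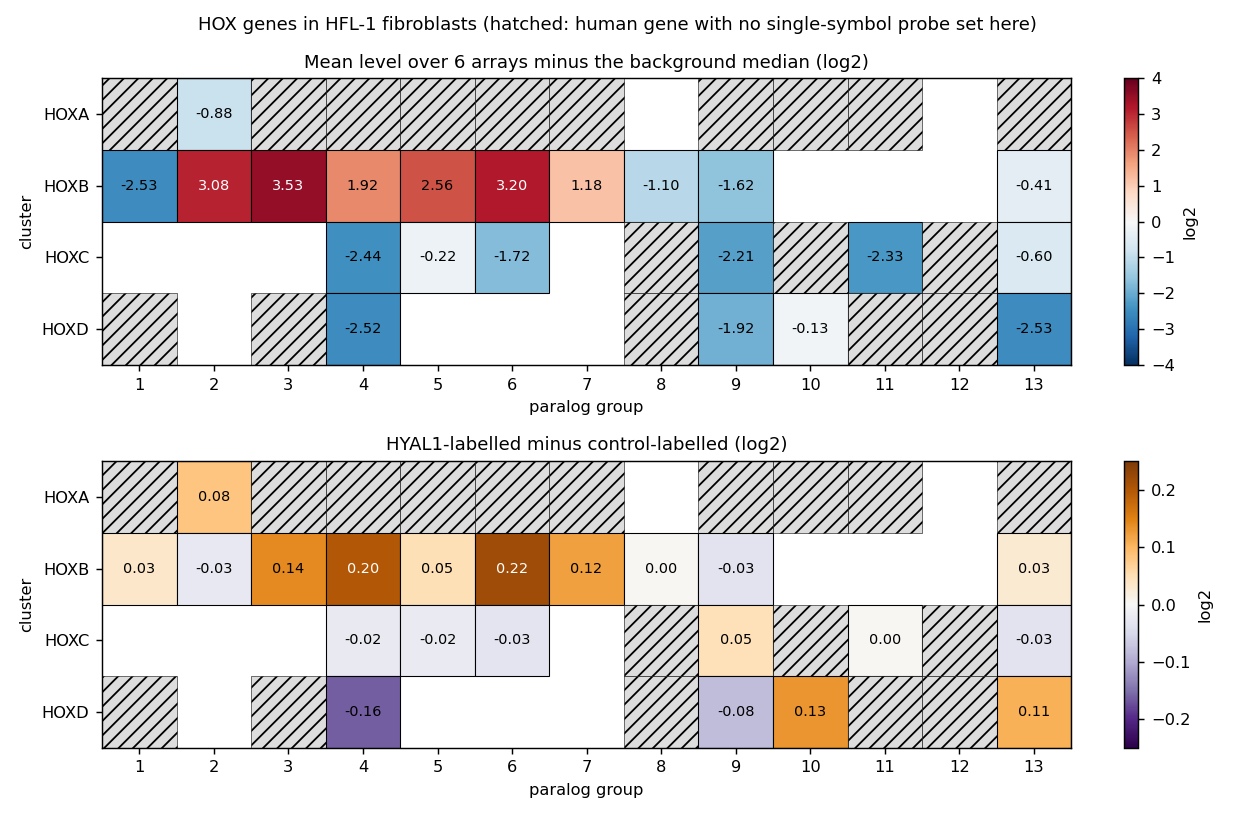
HOX genes by cluster (rows) and paralog group (columns). Each cell of the upper grid gives the mean log2 value over 6 arrays minus the background median, and each cell of the lower grid gives the difference of HYAL1-labelled minus control-labelled arrays (log2, 3 arrays each). Hatched cells are human HOX genes with no single-symbol probe set here, and blank cells are paralog groups a cluster lacks. HOXB2 to HOXB7 form the only block above the background median, and HOXB4 and HOXB6 hold the highest differences.

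The edges of the run were steep against this background median. HOXB2 averaged 9.86 ± 0.0328 in HYAL1-labelled arrays and 9.89 ± 0.0206 in control-labelled arrays (SD, n = 3 each), whereas HOXB1, the next gene toward the 3′ end, averaged 4.29 ± 0.0506 in HYAL1-labelled arrays and 4.25 ± 0.0649 in control-labelled arrays. HOXB7 averaged 8.04 ± 0.0320 in HYAL1-labelled arrays and 7.91 ± 0.0691 in control-labelled arrays. HOXB8, the next gene toward the 5′ end, averaged 5.70 ± 0.104 in HYAL1-labelled arrays and 5.69 ± 0.0413 in control-labelled arrays. Each gene is read here against the background and not against its neighbour, since probe sets differ in affinity. HOXB2, HOXB3, HOXB5 and HOXB6 exceeded 8 of the 9 background probe sets on every array, HOXB4 exceeded 7 and HOXB7 exceeded 6. The background set of highest GC content, at 11.01 to 11.27, lay above every HOX gene, so that by this strictest level 0 of 21 would be called expressed.

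Outside the HOXB run, no HOX gene was above the background median on all arrays. HOXD10, a 5′ gene of limb and spinal cord patterning, came closest and passed the level on 1 of 6 arrays. HOXC5 averaged 6.56 ± 0.0319 in HYAL1-labelled arrays and 6.58 ± 0.0332 in control-labelled arrays, just below it. HOXB13, known as a prostate and hindgut gene, averaged 6.40 ± 0.0744 in HYAL1-labelled arrays and 6.37 ± 0.0766 in control-labelled arrays. HOXB13, HOXC5, HOXC13 and HOXD10 exceeded 4 of the 9 background probe sets on all arrays. HOXA2 exceeded 3, HOXB8 exceeded 2, and HOXB9, HOXC6 and HOXD9 each exceeded 1. The background median was the level of the set with 21 G and C bases. Against the set with 17, at 4.46 to 4.57, all of these genes would be added. The extent of the HOXB run thus depends on the level chosen. HOXB1, HOXC4, HOXC9, HOXC11, HOXD4 and HOXD13 did not exceed even 1 background probe set on all arrays. A value below background does not show that a gene is silent, because a weak probe set may read little of an abundant RNA.

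**Figure D2:**
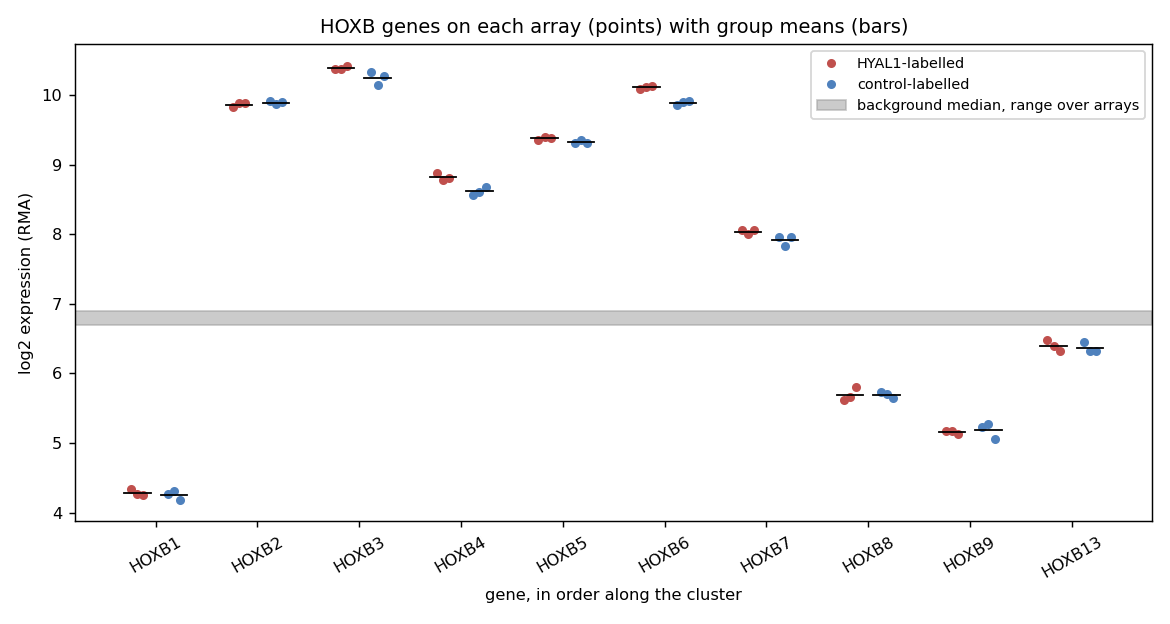
Log2 expression of the 10 HOXB genes on each array, in order along the cluster, with HYAL1-labelled arrays (red) left of control-labelled arrays (blue), bars at the means of 3 arrays and a grey band for the range of the background median. HOXB2 to HOXB7 lie above the band and the other 4 genes below it, and the groups of HOXB3, HOXB4, HOXB6 and HOXB7 do not overlap.

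The comparison of HYAL1-labelled with control-labelled arrays asks whether this HOX pattern differed between the 2 lentiviral vectors. HOXB6 was the only HOX gene that differed by limma's test over all 15277 genes, and it was higher in HYAL1-labelled arrays. So 1 of 21 HOX genes was called higher, where 68 of all genes (0.445%) were, and 0 of 21 were called lower, where 185 of all genes (1.21%) were. Together 253 genes (1.66%) differed at an adjusted p under 0.05. At an unadjusted p under 0.05, 5 HOX genes were higher, beside 9.69% of all genes, and 1 was lower, beside 7.72% of all genes. The median difference was 0.03 on the log2 scale over the 21 HOX genes, 0.04 over the 10 HOXB genes and 0.13 over the 6 above background, beside 0.01 over all genes.

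HOXB6, a middle HOXB gene that patterns the skeleton in mouse, read 10.08, 10.11 and 10.13 in HYAL1-labelled arrays and 9.85, 9.90 and 9.92 in control-labelled arrays. The groups did not overlap, and the gap between them was wider than the spread within either. The difference was 0.22 (95% interval 0.14 to 0.30, standard error 0.0334), which is 1.16-fold (limma adjusted p = 0.0300). HOXB6 was read by 1 probe set, so no second one could be set beside it. Leaving out any 1 of the 6 arrays kept the difference between 0.20 and 0.23 but took its adjusted p to between 0.083 and 0.138, while the calls over all genes dropped to between 15 and 52.

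HOXB4, known in blood stem cell expansion, read 8.88, 8.78 and 8.80 in HYAL1-labelled arrays and 8.57, 8.61 and 8.68 in control-labelled arrays. Again all HYAL1-labelled arrays lay above all control-labelled ones. Its difference of 0.20 (95% interval 0.10 to 0.30) missed the threshold with limma adjusted p = 0.0723, and passed with adjusted p = 0.00372 when limma's prior variance followed the expression level. HOXB3, a hindbrain and neck patterning gene, read 10.38, 10.38 and 10.42 in HYAL1-labelled arrays and 10.33, 10.14 and 10.28 in control-labelled arrays. Its difference was 0.14 (95% interval 0.02 to 0.27), with limma adjusted p = 0.229, and 0.0356 with the trended prior. It was 0.087 without control-labelled replicate 2, the array of lowest HOXB3.

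With that trended prior, 3 HOX genes (HOXB3, HOXB4 and HOXB6) were called higher, beside 429 of all genes (2.81%), and 0 were called lower, beside 595 (3.89%), out of 1024 calls in all (6.7%). These 3 genes all belong to the HOXB run above the background median. HOXB7 was the fourth gene of the run whose groups did not overlap, at 8.06, 7.999 and 8.05 in HYAL1-labelled arrays and 7.96, 7.83 and 7.95 in control-labelled arrays. Its difference of 0.12 (95% interval 0.02 to 0.22) did not pass in limma either way (adjusted p = 0.213, and 0.102 with the trended prior).

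The other members of the run stayed closer together. HOXB5, which in mouse takes part in lung airway branching, read 9.35, 9.39 and 9.38 in HYAL1-labelled arrays and 9.31, 9.36 and 9.31 in control-labelled arrays. The groups overlapped, and the difference of 0.05 had a 95% interval of -0.03 to 0.12 (limma adjusted p = 0.473). HOXB2, a hindbrain segment gene, read 9.82, 9.88 and 9.88 in HYAL1-labelled arrays and 9.91, 9.87 and 9.89 in control-labelled arrays. It was the only gene of the run with a difference below 0, at -0.03 (95% interval -0.10 to 0.05, limma adjusted p = 0.733), an interval that leaves room for a small change either way.

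Among the 15 HOX genes not above background on all arrays, none passed either fit, and their median difference was 0.00304. HOXD13, a digit and genital patterning gene, read 4.32, 4.34 and 4.30 in HYAL1-labelled arrays and 4.24, 4.19 and 4.22 in control-labelled arrays, a difference of 0.11 (limma adjusted p = 0.155). HOXA2 read 5.93, 5.96 and 5.98 in HYAL1-labelled arrays and 5.82, 5.88 and 5.93 in control-labelled arrays, so that its groups touched at this rounding (difference 0.08, limma adjusted p = 0.327, and 0.05 to 0.11 without 1 array). Both lay below the background median, where a difference need not come from the named RNA.

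HOXD4, a hindbrain and neck vertebra gene, read 4.17, 4.26 and 4.15 in HYAL1-labelled arrays and 4.36, 4.48 and 4.22 in control-labelled arrays, and had the lowest difference of the 21 genes, -0.16 (limma adjusted p = 0.279). HOXD9, a gene of the trunk and limb, read 4.83, 4.92 and 4.75 in HYAL1-labelled arrays and 5.00, 4.93 and 4.81 in control-labelled arrays (difference -0.08, limma adjusted p = 0.548). HOXD10 read 6.78, 6.84 and 6.59 in HYAL1-labelled arrays and 6.59, 6.62 and 6.60 in control-labelled arrays (difference 0.13, limma adjusted p = 0.346). In all 3 of these HOXD genes the groups overlapped. Leaving out 1 array moved the difference of HOXD4 between -0.23 and -0.10, of HOXD9 between -0.13 and -0.04 and of HOXD10 between 0.08 and 0.21. The 6 HOXC genes overlapped as well, with differences between -0.03 and 0.05, as did HOXB1, HOXB8, HOXB9 and HOXB13, with differences between -0.03 and 0.03.

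**Figure D3:**
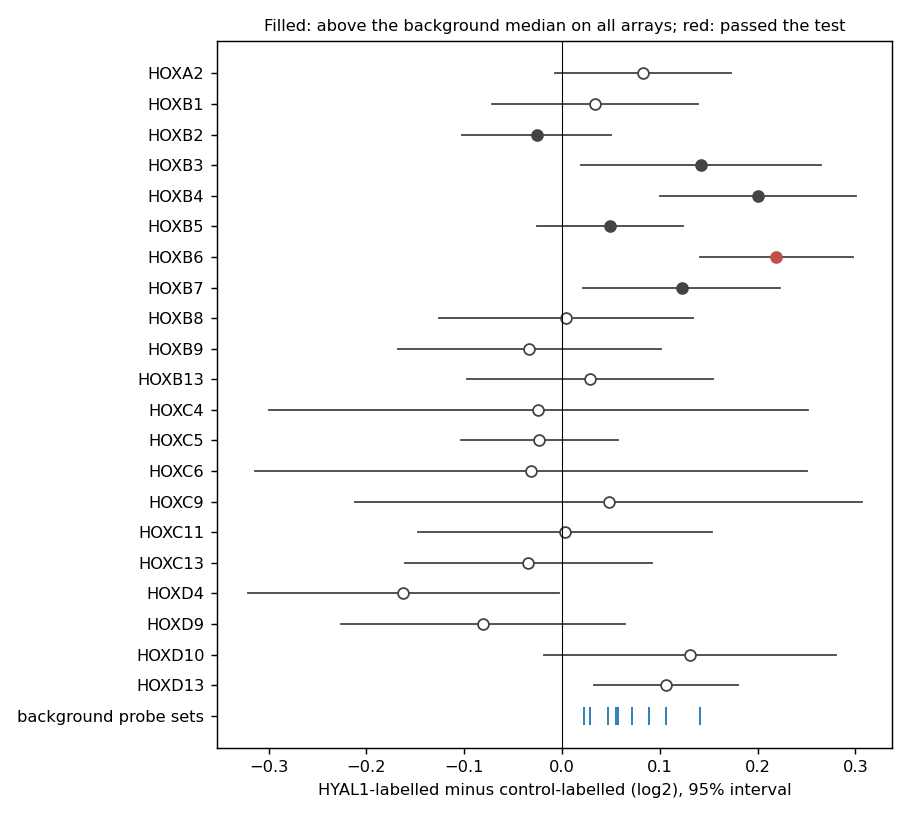
Difference of HYAL1-labelled minus control-labelled arrays (log2, x axis) with its 95% interval from limma for each of the 21 HOX genes, and for the 9 background probe sets as ticks. Filled points lie above the background median on all arrays and the red point is HOXB6, the gene that passed the test. HOXB4 and HOXB6 lie to the right of every background tick.

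In all, 6 HOX genes were higher in HYAL1-labelled arrays with no overlap between groups (HOXA2, HOXB3, HOXB4, HOXB6, HOXB7 and HOXD13), beside 14.1% of all genes, and 0 were lower with no overlap, beside 10.3% of all genes. The background probe sets had log2 differences of 0.02 to 0.14, all above 0 like these genes, and none of the 9 passed (lowest limma adjusted p = 0.236). HOXB4 and HOXB6 differed by more than any background set, HOXB3 stood level with the highest of them, and HOXB7, HOXD10, HOXD13 and HOXA2 lay within their range. The part of the background in the HOX differences was not tested.

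Other probe sets of the same genes allowed a check within 8 HOX genes. The second HOXB4 probe set read 7.002, 6.97 and 6.95 in HYAL1-labelled arrays and 6.73, 6.85 and 6.90 in control-labelled arrays, a difference of 0.15 in the same direction and again without overlap. It lay close to the background median, above it on only 5 arrays. It did not pass over all probe sets (limma adjusted p = 0.182, and 0.115 with the trended prior). The 3 other HOXB3 probe sets had differences of 0.08, 0.05 and -0.00308, against 0.14 for the one of highest mean, so HOXB3 depended on which probe set was read. The 3 HOXB5 probe sets stood at 0.05, 0.03 and 0.09. The 2 HOXD10 probe sets pointed in opposite directions, at 0.13 and -0.11. Probe sets of 1 gene may read different transcripts or share sequence with related genes, and which of these applies was not tested.

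**Figure D4:**
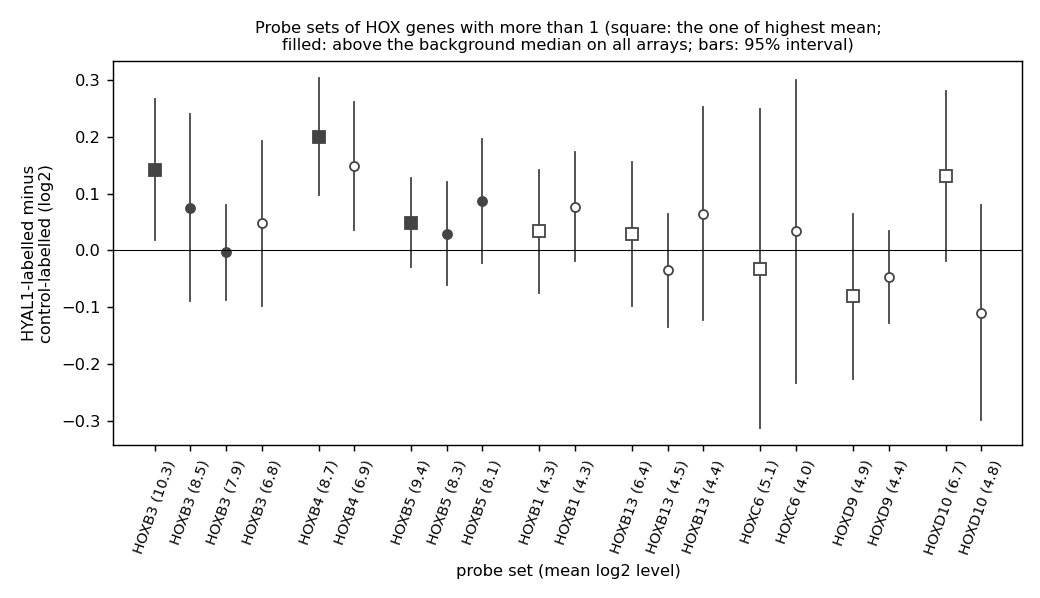
Difference of HYAL1-labelled minus control-labelled arrays (log2, y axis) with 95% intervals for every probe set of the 8 HOX genes that have more than 1, each labelled with its mean log2 level. Squares mark the probe set of highest mean. Both HOXB4 probe sets lie above 0, and the HOXD10 pair lies on either side of 0.

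HOXB-AS3, a noncoding RNA transcribed from the opposite strand within the HOXB5 to HOXB6 region, was the only 1 of 20 listed noncoding RNAs of the HOX clusters that was read. It read 8.77, 8.78 and 8.77 in HYAL1-labelled arrays and 8.82, 8.88 and 8.90 in control-labelled arrays. It was thus lower in every HYAL1-labelled array, where HOXB6 was higher, but the difference of -0.10 did not pass (limma adjusted p = 0.213). Of the 10 nearest measured genes flanking the HOXB cluster, 5 on each side and chosen after the values were seen, none passed. Among them COPZ2, a vesicle coat subunit gene beyond HOXB1, came nearest, with a difference of -0.18 (limma adjusted p = 0.0711, and 0.00088 with the trended prior). COPZ2 also passed without the 30% of genes of lowest mean, with renewed quantile normalization and with median centring. The robust trend and array weights gave a pass too (limma adjusted p between 6e-04 and 0.0471 over these settings). It did not pass with probe sets averaged (limma adjusted p = 0.0535) or with the replicate number as a block (limma adjusted p = 0.114). Nor did COPZ2 pass without any 1 array (limma adjusted p 0.0978 to 0.234).

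Genes that act on or with HOX genes were set beside the all-gene shares of 0.445% called higher and 1.21% called lower. Of 11 measured genes listed as TALE cofactors 0 passed in either direction. At an unadjusted p under 0.05, 4 were higher and 0 lower, beside 9.69% of all genes higher and 7.72% lower. The list also held HMBOX1, a homeobox gene outside the TALE class, with a difference of 0.00394 (limma adjusted p = 0.973). Of the 11 differences 9 were above 0, with a median of 0.09, as were 8755 of 15277 over all genes, with a median of 0.01. MEIS1, a partner of HOX proteins that was above background, read 9.01, 9.07 and 9.07 in HYAL1-labelled arrays and 8.96, 8.91 and 8.97 in control-labelled arrays. Its groups did not overlap, and its difference was 0.10 (limma adjusted p = 0.202). PBX4 had the highest difference of the list, 0.30 (limma adjusted p = 0.153), at a level below background, and of 0.13 with its probe sets averaged.

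Of 27 measured Polycomb genes 1 was called higher and 0 lower (4 higher and 2 lower at an unadjusted p under 0.05). This was EZH2, the histone methyltransferase of Polycomb complex 2, at 5.44, 5.44 and 5.39 in HYAL1-labelled arrays and 5.17, 5.07 and 5.22 in control-labelled arrays. It differed by 0.27 (limma adjusted p = 0.0383), with no overlap but with all 6 values below the background median, and after median centring its adjusted p was 0.0509. Of 26 measured Trithorax genes and H3K27 demethylases 0 were called in either direction, with 6 higher and 1 lower at an unadjusted p under 0.05, beside 9.69% and 7.72% of all genes. KAT6A, an acetyltransferase that keeps HOX genes active, and HCFC1, a subunit of Trithorax-type complexes, each differed by 0.14 (limma adjusted p = 0.0934 and 0.094). Both passed with the trended prior (limma adjusted p = 0.017 and 0.0176), but with probe sets averaged each differed by only 0.05 (limma adjusted p = 0.375 and 0.406).

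Of 13 measured retinoid genes 0 were called higher and 1 lower (0 and 2 at an unadjusted p under 0.05). This was DHRS3, which turns retinaldehyde back to retinol and so limits retinoic acid, at 6.96, 6.96 and 7.01 in HYAL1-labelled arrays and 7.15, 7.21 and 7.18 in control-labelled arrays. It differed by -0.20 (limma adjusted p = 0.0370), close to the background median. RDH10, the enzyme of the opposite step, differed by -0.19 with no overlap (limma adjusted p = 0.146). It passed with the trended prior (limma adjusted p = 0.00909) and with probe sets averaged (limma adjusted p = 0.0334). Without any 1 array it did not pass (limma adjusted p 0.0508 to 0.318). None of the 8 measured CDX, ParaHox and EVX genes was above background or differed (0 at an unadjusted p under 0.05).

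Of 28 measured factors that mark organ or axis position, 0 were called higher and 1 lower (4 and 4 at an unadjusted p under 0.05). GATA6, a lung and heart regulator, read 5.98, 6.01 and 6.27 in HYAL1-labelled arrays and 6.51, 6.50 and 6.49 in control-labelled arrays, a difference of -0.41 (limma adjusted p = 0.0440) at a level below the background median. Leaving out any 1 array ended the calls of EZH2, DHRS3 and GATA6, except that GATA6 kept its call without replicate 3 of the HYAL1-labelled arrays, where its difference was -0.50 (limma adjusted p = 0.0167). TBX3 and TBX5, T-box genes of limb, heart and lung mesenchyme, were above background and each differed by 0.15 (limma adjusted p = 0.0713 and 0.0835). With the trended prior both passed in limma (adjusted p = 0.00317 and 0.00402).

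**Figure D5:**
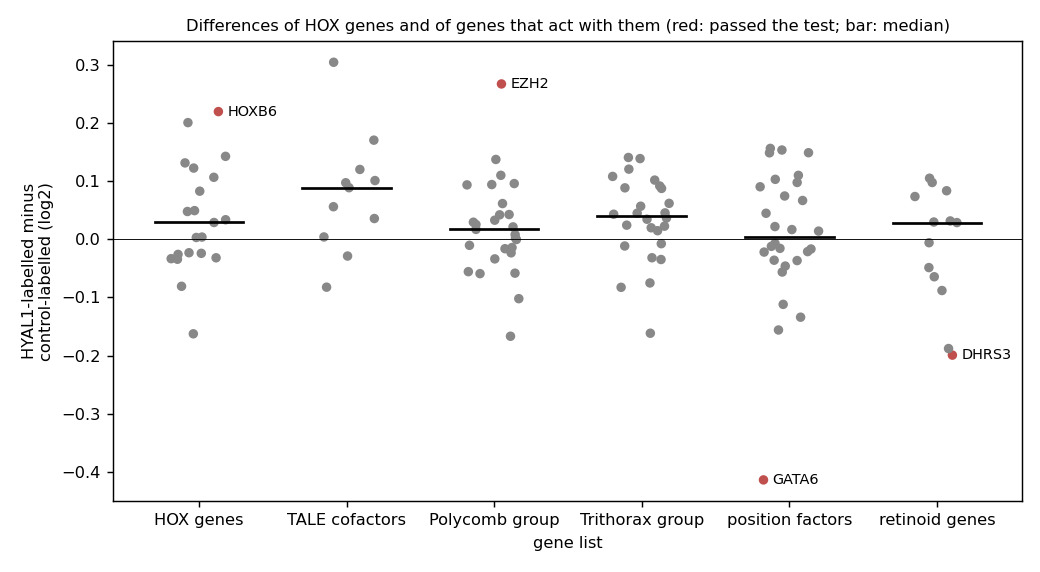
Difference of HYAL1-labelled minus control-labelled arrays (log2, y axis) for the HOX genes and for 5 lists of genes that act with them or mark position, 1 point a gene, with the median of each list as a bar. Red points passed limma's test (HOXB6, EZH2, GATA6 and DHRS3).

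The label of fetal lung fibroblasts was checked against markers. All 14 fibroblast markers and all 3 measured lung mesenchyme markers (TBX5, FOXF1 and TCF21) were above background on all arrays, against 3 of 9 epithelial, 2 of 8 endothelial and 2 of 6 leukocyte markers. Some smooth muscle markers differed between the groups as well. Their summed log2 values ran from 69.8 to 70.01 in HYAL1-labelled arrays and from 70.7 to 71.2 in control-labelled arrays, 5 of 8 were above background, and 3 of 8 (MYOCD, CNN1 and LMOD1) were called lower in HYAL1-labelled arrays, beside 1.21% of all genes. Of these 3, MYOCD was above the background median on only 2 of 6 arrays. MYH11 went the other way without passing, at a difference of 0.19 (limma adjusted p = 0.124) and below background. SMTN also went the other way without passing, at 0.07. Over the 14 fibroblast markers the sums ran from 161.6 to 161.9 in HYAL1-labelled arrays and from 162.1 to 162.6 in control-labelled arrays, with 1 marker called lower. Their part in the HOXB difference was not tested.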

How the data were processed

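HFL-1 RNA from 6 samples was labelled with a 3′ IVT kit and hybridised to PrimeView arrays. The authors deposited log2 values per probe set, made with RMA (background correction, quantile normalization and summary of probes), in Affymetrix Power Tools according to the submitters' processing notes (version not given in the sources used here). RMA compresses differences of dim probe sets. Of 39341 probe sets, 36091 had 1 gene symbol, 1397 several and 1847 none, and 73 were controls. The probe set of highest mean stood for each of 15277 genes. The HYAL1 probe set was found by matching array values to the study's supplementary list (tolerance 0.001). That list was otherwise used only for its array headings. Groups came from the sample titles. Differences were fitted with limma 3.58.1 in R 4.3.3 (eBayes, Benjamini-Hochberg over all genes, threshold 0.05), tested on simulated data, and the trended prior was an alternative. The number of arrays limits the precision. HOX genes that passed in either fit, and the 8 next by adjusted p, were named with all array values, with called genes and up to 3 more of each other list. The members and lists were chosen with earlier results of these data known. Promoter windows and positions are RefSeq's.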

Additional observations from a re-analysis of the deposited data

How the results depend on the processing

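The 0 HOX genes called lower stayed 0 under all alternatives run. The 1 called higher became 2 without the 30% of genes of lowest mean, 3 with the trended prior variance, 3 with the robust trend, 0 with the replicate number as a block and 0 without any 1 array. With the block, HOXB6 kept its difference of 0.22 but had limma adjusted p = 0.0954, and the calls over all genes were 1. The deviations of same-numbered arrays from their group means had correlations of 0.0629, -0.0229 and 0.235. The last was the highest between any arrays of the 2 groups, but not every array correlated best with its own number. Deviations from means of 3 arrays cannot decide whether the numbers pair the samples. The calls over all genes were 673 with the filter, 1024 with the trend, 1079 with the robust trend, 406 with array weights and between 15 and 52 without 1 array. The 6 HOX genes above the background median became 0 against the highest background probe set.

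In the other lists, the 1 gene called higher became 3 with probe sets averaged, 4 with the filter, 2 with renewed quantile normalization, 0 with median centring, 6 with the trend, 8 with the robust trend, 2 with array weights, 0 with the block, 5 with every probe set tested and 0 without any 1 array. The 2 called lower became 4 with probe sets averaged, 4 with the trend, 5 with the robust trend, 0 with the block, 4 with every probe set tested and between 0 and 1 without 1 array. Differences changed sign with probe sets averaged in HOXC6 (0.000853), PHF19 (0.015) and RXRB (-0.0193), with renewed quantile normalization in HOXB8 (-0.0141) and HOXC11 (-0.0126), with median centring in HOXB8 (-0.00463) and HOXC11 (-0.00533), and with array weights in HOXB8 (-0.000759) and HOXC4 (0.0669). Without 1 array the sign changed in HOXB1 (-0.001005 to 0.0634), HOXB8 (-0.054 to 0.046), HOXB9 (-0.0984 to 0.00894), HOXB13 (-0.00973 to 0.073), HOXC4 (-0.137 to 0.0999), HOXC6 (-0.184 to 0.0732), HOXC9 (-0.0724 to 0.112), HOXC11 (-0.0331 to 0.0582) and HOXC13 (-0.0716 to 0.0112). Each of these HOX genes lay below the background median. The cause of these changes was not tested. Dim probe sets limit what can be said of the 15 HOX genes not above the background median on all arrays.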
